A study of Mus musculus with 9 samples.

Results

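Cholesterol synthesis and its control by SREBP2 were followed through 7 genes: Srebf2, Scap, Insig1, Hmgcs1, Idi1, Fdft1 and Sqle. They were chosen by name for their roles, with earlier results of these data known. They are 7 of the 55401 genes annotated in the deposited tables, and all 7 had enough counts to be among the 16046 genes tested. RNA was sequenced from nuclei sorted from mouse cortex for NeuN, a protein of neuronal nuclei, in 9 libraries of 3 groups. The first group of 3 came from mice with the P301S tau transgene, a tau mutation of inherited frontotemporal dementia, that received the Cdk5i peptide. The second group of 3 came from mice with the same P301S tau transgene given the scrambled peptide, and the last group of 3 came from wild-type mice without any treatment. Both peptides were given by intraperitoneal injection every second day, 20 mg per kg of body weight, and the animals were 7 to 9 months old. Cdk5 is a kinase of neurons that phosphorylates tau among many other proteins. All 3 groups are nuclei of the cortex, and the scrambled peptide is the control for the sequence of Cdk5i. Wild-type mice were not injected, so transgene and injection cannot be told apart in either comparison with them. The promoter that drives the transgene is not given in the sources used here, nor whether each library came from 1 animal. The p-values therefore measure the spread between these libraries, which may be technical.

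SREBP2, the product of Srebf2, is a transcription factor made as a protein of the endoplasmic reticulum membrane. Scap escorts it to the Golgi when membrane sterol is low, where proteases release its active part, and Insig1 holds the Scap complex back when sterol is high. The released part binds sterol regulatory elements in the promoters of genes for nearly every step from acetyl-CoA to cholesterol, and also at Insig1 and at Srebf2 itself. Hmgcs1 makes HMG-CoA at the start of the pathway, Idi1 interconverts the isoprene units, Fdft1 is squalene synthase, and Sqle epoxidises squalene at a rate-limiting step. Neurons of the adult cortex synthesise some cholesterol themselves, take up more in lipoproteins released by astrocytes, and remove it by hydroxylation with the enzyme of Cyp46a1.

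Promoter windows of the RefSeq annotation (GRCm38.p6, 250 bases before to 50 after each start) were found for 5 of the 7 genes, Srebf2, Scap, Insig1, Hmgcs1 and Idi1, in 6 windows. The 3 sequences shown are those of the regulator's own gene Srebf2, of its sterol-controlled partner Insig1 and of the enzyme gene Hmgcs1, each read 5′ to 3′ on the plus strand up to the base before the earlier of the RefSeq and the Ensembl start. That is the RefSeq start for Hmgcs1, at 119690351, and the Ensembl start for Srebf2 and Insig1. Capitals mark 2 motifs searched on both strands: TCACNCCA, the core letters of the sterol regulatory element, and CCAAT, the NF-Y motif, which reads ATTGG on the other strand. They lie at chr13:119690101-119690350 for Hmgcs1, chr15:82147019-82147180 for Srebf2 and chr5:28071162-28071362 for Insig1.
Hmgcs1: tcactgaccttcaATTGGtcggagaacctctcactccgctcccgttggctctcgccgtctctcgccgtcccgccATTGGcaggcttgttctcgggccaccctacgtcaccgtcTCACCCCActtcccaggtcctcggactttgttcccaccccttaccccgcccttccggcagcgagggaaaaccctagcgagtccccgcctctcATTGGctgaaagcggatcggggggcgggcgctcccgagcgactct
Srebf2: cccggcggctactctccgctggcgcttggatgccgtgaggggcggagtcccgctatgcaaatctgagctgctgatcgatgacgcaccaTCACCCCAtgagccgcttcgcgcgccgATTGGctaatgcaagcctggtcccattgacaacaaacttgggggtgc
Insig1: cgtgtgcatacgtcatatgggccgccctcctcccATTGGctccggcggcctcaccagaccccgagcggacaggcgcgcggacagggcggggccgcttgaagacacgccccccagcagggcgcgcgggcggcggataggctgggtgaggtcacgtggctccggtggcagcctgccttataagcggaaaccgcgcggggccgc

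The Hmgcs1 window held TCACCCCA, which begins 137 bases before the RefSeq start and is followed by C, so that it also matched the longer form TCACNCCAC. The Srebf2 window held TCACCCCA beginning 162 bases before its RefSeq start, without that last C. Among all 32851 RefSeq windows of the same 300 bases, 4.36% held TCACNCCA and 1.24% held TCACNCCAC. No TCACNCCA was found in the windows of Insig1, Idi1 or Scap, which says only that these letters are not in those 300 bases. CCAAT occurred 4 times in the whole 300-base Hmgcs1 window, 2 times in that of Idi1, once each in those of Srebf2 and Insig1 and in neither Scap window, and 37.4% of all windows held it. Another RefSeq sequence belongs to the Srebf2 locus: miR-33-5p, a microRNA known to act on cholesterol export genes such as Abca1, is encoded inside Srebf2 on the same strand at chr15:82198127-82198147. Its mature sequence is shown with the seed, bases 2 to 8, in capitals.
miR-33-5p: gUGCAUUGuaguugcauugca

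Read pairs that fall in this precursor also fall in Srebf2, and the counts of Mir33 itself were 0 in all 9 libraries, so the microRNA was not measured here apart from its host. Srebf2 (ENSMUSG00000022463) spans 58199 bp of chromosome 15, from 82147181 to 82205379 on the plus strand of GRCm38. The counts cover whole genes, introns included. Scap (ENSMUSG00000032485) spans chromosome 9 from 110333288 to 110384950 and Insig1 (ENSMUSG00000045294) spans chromosome 5 from 28071363 to 28078662, both on the plus strand. Hmgcs1 (ENSMUSG00000093930) lies on chromosome 13 from 119690379 to 119708260 and Idi1 (ENSMUSG00000058258) on the same chromosome from 8885501 to 8892451, both on the plus strand. Fdft1 (ENSMUSG00000021273) lies on the minus strand of chromosome 14 from 63145150 to 63179578, and Sqle (ENSMUSG00000022351) on the plus strand of chromosome 15 from 59315077 to 59331192. Ctsb, a more abundant gene on the other strand, overlaps Fdft1, and the counting was stranded.

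The libraries held 21584712 to 26715938 counts. Neuronal markers summed to 5756 to 7042 CPM (counts scaled to the normalised total of the library) in Cdk5i libraries, 5892 to 6577 CPM in scrambled-peptide libraries and 6120 to 6674 CPM in wild-type libraries, and all 8 were present in every library. The 9 astrocyte markers summed to 26.0 to 27.5, 25.3 to 28.4 and 22.0 to 33.9 CPM in Cdk5i, scrambled-peptide and wild-type libraries, and the 8 microglial markers to 56.8 to 134, 67.6 to 80.8 and 52.6 to 159 CPM. Oligodendrocytes, which make the cholesterol of myelin, were represented by 14 markers that summed to 166 to 213 CPM in Cdk5i, 197 to 225 CPM in scrambled-peptide and 168 to 176 CPM in wild-type libraries. The sums of the 6 precursor and 5 endothelial markers were 24.5 CPM or less in every library. A count of 0 in some library was seen for 1 precursor, 3 microglial and 2 endothelial markers, and no marker was at 0 in all.

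Genes can be compared only per kilobase of gene, which was done here with the CPM of whole genes. Srebf2, the transcription factor, averaged 1.53 ± 0.151 CPM per kb, Hmgcs1 1.47 ± 0.220 and Insig1 1.39 ± 0.214 (SD over the 9 libraries). These 3 neighbours did not differ beyond their spread. Fdft1 followed at 1.09 ± 0.155 CPM per kb, and its range of 0.865 to 1.34 overlapped that of Insig1, 1.02 to 1.68. Within each library, however, Insig1 was above Fdft1, by least in the first Cdk5i library (1.02 and 1.01). Sqle at 0.914 ± 0.140 and the escort gene Scap at 0.909 ± 0.0417 CPM per kb did not differ beyond their spread. Idi1 was lowest at 0.440 ± 0.104 CPM per kb, and its highest library, 0.562, lay below the lowest library of each of the others. Among all 16046 tested genes these levels per kb stood at the 83.5th percentile for Srebf2 and at the 43.9th for Idi1. Of the 7 genes, only Srebf2 shared length with other genes on its strand (2179 of 58199 bp). Leaving that length out could only raise Srebf2, which was already first, so it could not test the order.

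**Figure D1:**
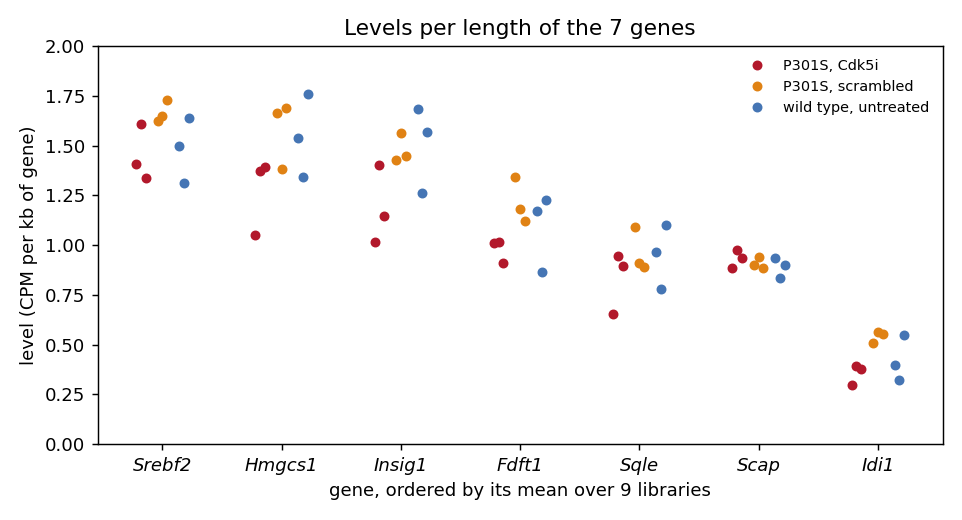
Level of each of the 7 genes in CPM per kb of gene (vertical axis), 1 point a library, with P301S Cdk5i left of P301S scrambled peptide and untreated wild type within each gene. Genes run from the highest mean, Srebf2 at 1.53, to the lowest, Idi1 at 0.440, and the points of Scap are the tightest.

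The genes also differed in how much they varied between libraries, on the CPM scale. The coefficient of variation over the 9 libraries was 4.59% for Scap, 9.83% for Srebf2, 14.2% for Fdft1, 15.0% for Hmgcs1, 15.3% for Sqle, 15.4% for Insig1 and 23.7% for Idi1. Counting alone would give 2.99% for Scap and 2.17% for Srebf2, and 11.7% for Idi1, which had only 46 to 97 counts a library. Each gene thus varied by more than its counting error, with Scap nearest to it.

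The first question was whether the Cdk5i peptide, which is directed against the kinase Cdk5, changes these genes in P301S neurons relative to the scrambled peptide. Fitted levels were lower with Cdk5i for 6 of the 7 genes, by 0.20 to 0.60 on the log2 scale, where 52.8% of all genes were lower, and the exception was Scap. None of the 7 passed the threshold of 0.05 on the adjusted p-value, as 0.0125% of all genes did, which are 2 of 16046. In 4 genes, Srebf2, Insig1, Idi1 and Fdft1, every Cdk5i library lay below every scrambled-peptide library, which was so for 5.38% of all genes tested. In bulk libraries, fewer nuclei of a kind and less RNA per nucleus cannot be told apart. The genes are described in the order regulators, then enzymes, each with its CPM in the 3 libraries of a group.

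Srebf2 had 81.8, 93.7 and 77.8 CPM in Cdk5i libraries, 94.6, 95.8 and 101 CPM in scrambled-peptide libraries and 87.2, 76.4 and 95.3 CPM in wild-type libraries. All 3 Cdk5i libraries were below the scrambled-peptide libraries, by less than 1 CPM for the nearest pair, and the wild-type libraries overlapped both groups. The log2 fold change of Cdk5i over scrambled peptide was -0.20 with a standard error of 0.086 and an unadjusted p of 0.0362 (edgeR quasi-likelihood test), and the adjusted p was 0.922.

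Scap, the escort, had 45.7, 50.5 and 48.3 CPM in Cdk5i libraries, 46.5, 48.5 and 45.6 CPM in scrambled-peptide libraries and 48.3, 43.1 and 46.4 CPM in wild-type libraries. The 3 groups overlapped throughout. Its fitted log2 fold change between the peptides was 0.04, with a 95% interval of -0.10 to 0.18 and an adjusted p of 0.977 in edgeR. 

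Insig1, the sterol-sensing anchor and itself a target of SREBP2, had 7.41, 10.2 and 8.36 CPM in Cdk5i libraries, 10.4, 11.4 and 10.6 CPM in scrambled-peptide libraries and 12.3, 9.22 and 11.4 CPM in wild-type libraries. The Cdk5i libraries were below the scrambled-peptide libraries, the second one by little, and it also exceeded the lowest wild-type library. The log2 fold change between the peptides was -0.31 ± 0.137 (standard error), with an adjusted p of 0.922 in edgeR.

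Hmgcs1, the entry enzyme, had 18.8, 24.6 and 24.9 CPM in Cdk5i libraries, 29.8, 24.8 and 30.2 CPM in scrambled-peptide libraries and 27.5, 24.0 and 31.4 CPM in wild-type libraries. The third Cdk5i library was at the level of the second scrambled-peptide library, so the groups overlapped, and the first Cdk5i library was the lowest of all 9. Between the peptides the log2 fold change was -0.31 ± 0.128 (standard error), with an adjusted p of 0.922 in edgeR.

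Idi1, which interconverts the isoprene units, had 2.05, 2.74 and 2.64 CPM in Cdk5i libraries, 3.55, 3.91 and 3.85 CPM in scrambled-peptide libraries and 2.75, 2.25 and 3.81 CPM in wild-type libraries. The gap between the peptide groups was wider than the range within either, while wild-type libraries fell on both sides of it. Its log2 fold change of -0.60 was the largest in size of the 7, with a 95% interval of -1.03 to -0.16, which is a fold of 0.661 with an interval of 0.489 to 0.893. The unadjusted p was 0.0107 and the adjusted p 0.819 (edgeR), and the gene ranked 207 of 16046 by p.

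Fdft1, squalene synthase, had 34.8, 34.9 and 31.4 CPM in Cdk5i libraries, 46.2, 40.6 and 38.6 CPM in scrambled-peptide libraries and 40.3, 29.8 and 42.3 CPM in wild-type libraries. The peptide groups did not overlap, and the second wild-type library was lower than any other. The log2 fold change between the peptides was -0.31 ± 0.119 (standard error), with an adjusted p of 0.891 in edgeR.

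Sqle, squalene epoxidase, had 10.5, 15.2 and 14.4 CPM in Cdk5i libraries, 17.5, 14.7 and 14.3 CPM in scrambled-peptide libraries and 15.6, 12.5 and 17.8 CPM in wild-type libraries. Only the first Cdk5i library stood below the scrambled-peptide range. The log2 fold change between the peptides was -0.21, with a 95% interval of -0.55 to 0.13 and an adjusted p of 0.958 (edgeR).

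**Figure D2:**
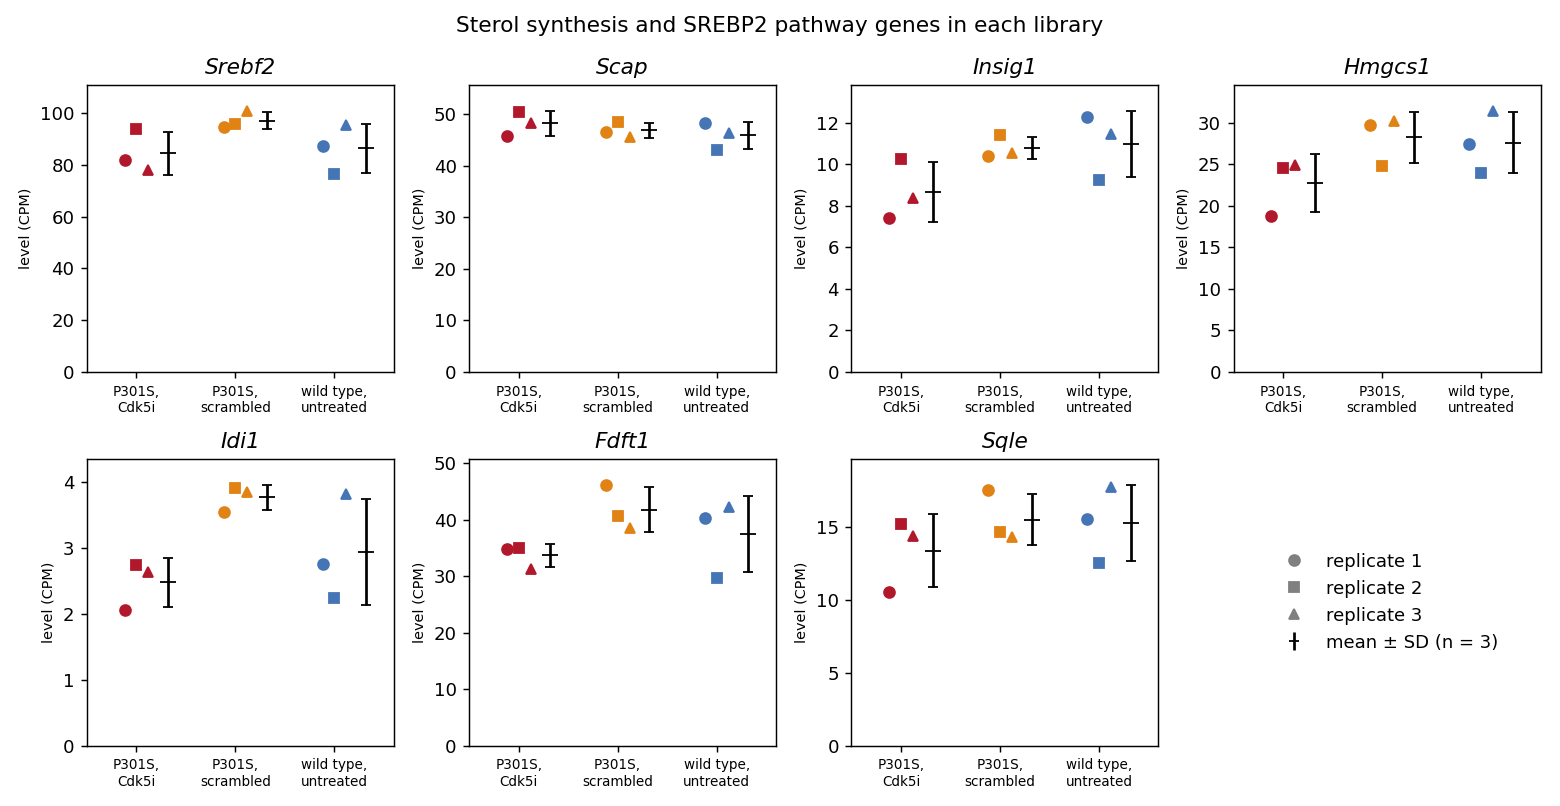
CPM of each gene (vertical axes, each from 0) in the 3 libraries of the P301S Cdk5i, P301S scrambled-peptide and untreated wild-type groups; symbols give the replicate number and black bars the mean ± SD (n = 3). The Cdk5i and scrambled-peptide points do not overlap for Srebf2, Insig1, Idi1 and Fdft1, and the second wild-type library (square) is the lowest of its group for all 7 genes.

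Over the 7 genes the median log2 fold change of Cdk5i over scrambled peptide was -0.31, against -0.01 over all genes tested. The adjusted threshold was passed by 0 of 7 in edgeR and by 0 of 7 in DESeq2 and limma-voom. An unadjusted p under 0.05 was reached by 5 of 7 in edgeR, all lower, where 5.33% of all genes reached it, by 5 in limma-voom and by 3 in DESeq2. The 7 genes tended to move together between libraries, Scap least, so they are not 7 separate observations. They were also chosen with earlier results of these data known, so the shares over all genes are not an independent yardstick for them.

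How many reached that unadjusted level depended on single libraries. Without the first Cdk5i library the count was 2 of 7 and the median -0.19, and it was also 2 without the third Cdk5i library. Without scrambled-peptide library 1, 2 or 3 it was 1, 3 and 2. In each of these fits 6 of 7 fold changes were negative, and none passed the adjusted threshold.

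Measures of the libraries were set beside the genes. The share of counts from mitochondrially encoded genes was 0.0793, 0.108 and 0.130% in Cdk5i libraries, 0.135, 0.137 and 0.0989% in scrambled-peptide libraries and 0.117, 0.0922 and 0.127% in wild-type libraries. The first Cdk5i library and the second wild-type library had the lowest shares, and in both of them all 7 genes were below their median over the 9 libraries. Other libraries did not follow this. The third scrambled-peptide library had the next lowest share, 0.0989%, with 2 of 7 genes below their median. The third Cdk5i library, at 0.130%, had 5 of 7 below. With this share as a covariate, a fit added after the data were seen, 6 of 7 fold changes between the peptides stayed negative, the median was -0.23, and 1 of 7 had an unadjusted p under 0.05. Fold changes also differed by gene length. Genes under 20 kb, a class that holds Insig1, Hmgcs1, Idi1 and Sqle, had a median log2 fold change of -0.06 between the peptides. Genes over 60 kb had one of 0.04. By library, genes under 20 kb with at least 50 counts on average lay lowest against their own means in the first Cdk5i library. Their median log2 deviation was -0.0637 there and -0.0518 in the second wild-type library, with -0.0090 in the third scrambled-peptide library next. The part of this in the low values of the 7 genes was not tested. With an offset for gene length, likewise added afterwards, the median of the 7 was -0.25 and 4 of 7 had an unadjusted p under 0.05. Of the 12 oligodendrocyte markers tested, 9 had a negative log2 fold change between the peptides, and their part in the result was not tested.

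The second question was whether neurons of Cdk5i-treated P301S mice differ from those of untreated wild-type mice. The 2 comparisons share the Cdk5i libraries. Here 6 of the 7 genes were again lower on average, as 51.2% of all genes were, but the groups overlapped for all 7, while 8.03% of all genes were higher and 8.22% lower in every Cdk5i library. Insig1 averaged 8.67 ± 1.44 CPM in Cdk5i libraries and 11.0 ± 1.58 CPM in wild-type libraries (SD, n = 3 each), a log2 fold change of -0.34 with an adjusted p of 0.394 in edgeR. Hmgcs1 averaged 22.8 ± 3.44 CPM with Cdk5i and 27.6 ± 3.71 CPM in wild type, with a log2 fold change of -0.28 and an adjusted p of 0.459 in edgeR. Idi1, Sqle and Fdft1 had log2 fold changes of -0.24, -0.19 and -0.15. Srebf2 was at -0.03, with a 95% interval of -0.22 to 0.15, and Scap at 0.07, with an interval of -0.07 to 0.21. The sign of Srebf2 changed, to 0.05 and 0.03, without wild-type library 3 or Cdk5i library 3.

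The median over the 7 genes was -0.19, against -0.01 over all genes. None of the 7 passed in edgeR, DESeq2 or limma-voom, where edgeR called 0.0748% of all genes. In edgeR 1 of 7, Insig1, had an unadjusted p under 0.05, as 11% of all genes did, and DESeq2 and limma-voom each gave 2. That count was 0 without wild-type library 1 or 3 or Cdk5i library 1, it was 2 without scrambled-peptide library 2 or Cdk5i library 2, and it was 3 without wild-type library 2.

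The third question was whether P301S neurons under scrambled peptide differ from untreated wild type. This comparison shares its scrambled-peptide libraries with the first and its wild-type libraries with the second. Srebf2 averaged 97.0 ± 3.24 CPM in scrambled-peptide libraries and 86.3 ± 9.51 CPM in wild-type libraries, with a log2 fold change of 0.17, an interval of -0.02 to 0.35 and an adjusted p of 0.539 in edgeR. Idi1 averaged 3.77 ± 0.192 CPM in scrambled-peptide libraries and 2.94 ± 0.800 CPM in wild-type libraries, a log2 fold change of 0.36 with an adjusted p of 0.585. Fdft1 stood at 0.16, with an adjusted p of 0.700. In all 6 of the 7 genes were higher on average, as 51.7% of all genes were. The other members lay between -0.03 and 0.03 on the log2 scale, and the fitted sign of each of them, Scap, Insig1, Hmgcs1 and Sqle, turned under at least 1 other processing. The groups overlapped for all 7 genes, while 8.26% of all genes were higher and 8.03% lower in every scrambled-peptide library.

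The median of the 7 was 0.03, against 0.01 over all genes tested. None passed in edgeR, which called 0.081% of all genes, and none had an unadjusted p under 0.05, which 10.1% of all genes had. The same counts of 0 and 0 were found with DESeq2 and limma-voom. In the test of any difference among the 3 groups, the adjusted p-values of the 7 ran from 0.462 for Idi1 to 0.872 for Scap (edgeR), and 0.0748% of all genes passed. An unadjusted p under 0.05 was found for 1 of the 7, Idi1, and for 9.85% of all genes.

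**Figure D3:**
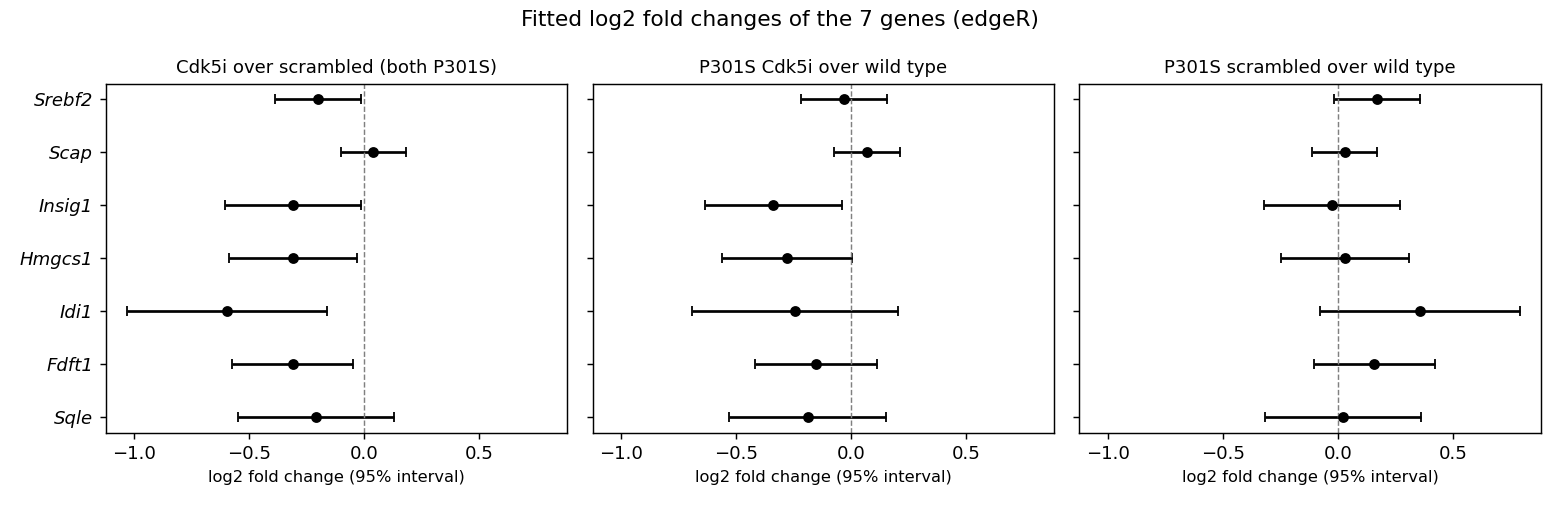
Fitted log2 fold change of each gene (horizontal axis, points) with its 95% interval (bars) from edgeR, for Cdk5i over scrambled peptide, P301S Cdk5i over wild type and P301S scrambled peptide over wild type; the dashed line is no difference. In the left panel 5 intervals lie below 0, yet no gene passed after adjustment over 16046 genes.

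Most of the genes tended to go up and down together across the 9 libraries, Scap least. In the first Cdk5i library Idi1 was at 67.1% of its mean over the 9 libraries, Sqle at 71.6%, Hmgcs1 at 71.7% and Insig1 at 73.0%, each the lowest of the 9. In the second wild-type library Srebf2 at 85.6%, Scap at 91.8% and Fdft1 at 79.1% were each the lowest of the 9, and Idi1 was at 73.4%. Between them these 2 libraries held the lowest value of every one of the 7 genes. The number of the 7 below their own median was 7, 4 and 5 in Cdk5i libraries, 0, 1 and 2 in scrambled-peptide libraries and 1, 7 and 1 in wild-type libraries. The matching shares over all genes were not computed.

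Over the 21 pairs of the 7 genes, Pearson's r of log2 CPM across the 9 libraries ran from 0.04 to 0.88, with a median of 0.67. The highest was that of Hmgcs1 with Sqle, at 0.88 and a Spearman's rho of 0.68, and the lowest that of Scap with Hmgcs1. The pairs with Scap ran only from 0.04 to 0.39, below all other pairs. Srebf2 and Idi1 had an r of 0.85 and a rho of 0.92. With the group means taken out, all 21 values of r were above 0 and their median was 0.63, so the co-variation was also present within groups. The highest of these was that of Scap with Insig1, at 0.96, and the lowest that of Hmgcs1 with Fdft1, at 0.39. These correlations describe 9 libraries, in each of which the genes share depth and composition. The same values over pairs of all genes were not computed, so they do not show that these genes co-vary more than others.

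**Figure D4:**
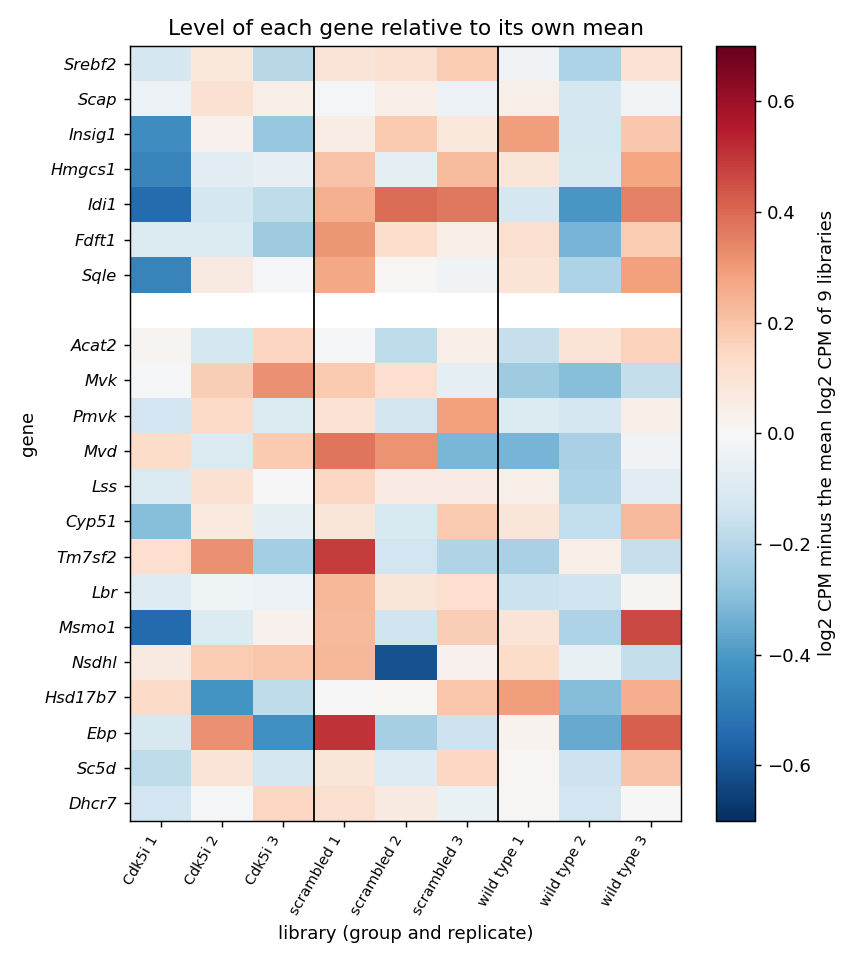
Log2 CPM of each gene minus its mean over the 9 libraries (colour, red above and blue below), for the 7 genes (top block) and 14 further enzymes of the pathway (lower block; Fdps, with a mean of 10.3 counts, is among those not drawn), with Cdk5i, scrambled-peptide and wild-type libraries from left to right. The first Cdk5i column is blue for all 7 genes, with a median of -0.44, and the second wild-type column likewise, with a median of -0.21, while the 3 scrambled-peptide medians are 0.20, 0.11 and 0.07.

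The genes most like Srebf2 were sought among 10879 named genes with at least 50 counts on average, predicted genes (Gm numbers and Rik names) and pseudogenes left out. Over the 9 libraries they were Syngr1, a synaptic vesicle protein, with an r of 0.97, and Ptms and Smarcd2, each with an r of 0.95. Syngr1 had 61.1, 66.2 and 56.5 CPM in Cdk5i libraries, 68.3, 71.3 and 69.1 CPM in scrambled-peptide libraries and 62.0, 56.9 and 68.0 CPM in wild-type libraries. Among the other members, Idi1 ranked 49, Fdft1 156, Insig1 579, Hmgcs1 868, Sqle 1007 and Scap 2981 by this measure.

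The rest of the route from acetyl-CoA to cholesterol was followed through a list of other enzymes. Of 16 further enzymes, all tested, 13 were lower with Cdk5i than with scrambled peptide, with a median log2 fold change of -0.12, and none passed the adjusted threshold (edgeR). Lbr, a sterol reductase of the inner nuclear membrane, was the 1 of 16 with an unadjusted p under 0.05, at -0.20, and its groups did not overlap. Over all genes tested, 52.8% were lower in this comparison, 5.33% had an unadjusted p under 0.05 and 5.38% were lower without overlap. For the unadjusted p, 1 of 16 is near that share. Msmo1, a C4-methyl oxidase, had a log2 fold change of -0.28, Hsd17b7 one of -0.21 and Nsdhl one of 0.21, with adjusted p-values of 0.955 to 0.966. Dhcr7, a reductase of the last steps, averaged 11.7 CPM in Cdk5i libraries and 12.1 CPM in scrambled-peptide libraries, a difference that did not pass.

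Against wild type, Cdk5i libraries had 8 of the 16 enzymes lower and 8 higher, with a median of 0.0050, where 51.2% of all genes were lower. Mvk, mevalonate kinase, averaged 5.50 ± 0.623 CPM in Cdk5i libraries, 5.18 ± 0.450 CPM in scrambled-peptide libraries and 4.15 ± 0.192 CPM in wild-type libraries. Both P301S groups lay above all wild-type libraries for Mvk, with log2 fold changes over wild type of 0.41 for Cdk5i and 0.32 for scrambled peptide and adjusted p-values of 0.332 and 0.475 (edgeR). Both comparisons use the same wild-type libraries. Of all genes, 8.03% were higher without overlap for Cdk5i and 8.26% for scrambled peptide. Scrambled-peptide libraries had 12 of 16 enzymes higher than wild type, with a median of 0.10, 2 of 16 with an unadjusted p under 0.05 (Mvk and Lbr), and none past the threshold. Over all genes tested, 51.7% were higher in that comparison, the median was 0.01, and 10.1% had an unadjusted p under 0.05.

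The wider control of SREBP2 was read from a list of regulators. The proteases that release SREBP2 averaged 73.6 CPM for Mbtps1 in both peptide groups, and 20.5 CPM in Cdk5i libraries and 20.4 CPM in scrambled-peptide libraries for Mbtps2. Insig2, the second anchor, averaged 16.2 CPM in Cdk5i libraries, 16.6 CPM in scrambled-peptide libraries and 16.9 CPM in wild-type libraries. Of 12 regulators 11 were tested, and their median log2 fold change between the peptides was -0.0011, with values from -0.09 to 0.07 and none at an unadjusted p under 0.05. Against wild type, Cdk5i libraries had Spring1, which is needed for cleavage of SREBPs, at 0.22 and Srebf1, which encodes the related SREBP1, at 0.21, with adjusted p-values of 0.520 and 0.607 (edgeR). Scrambled-peptide libraries had Spring1 at 0.23 and Srebf1 at 0.15 over wild type, with adjusted p-values of 0.530 and 0.756.

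The branch from isoprenes to dolichol, ubiquinone and prenylated proteins had a median of 0.03 over its 8 genes between the peptides, with 0 at an unadjusted p under 0.05. Ggps1, which makes geranylgeranyl diphosphate, averaged 16.6 ± 1.19 CPM in Cdk5i libraries, 17.0 ± 0.848 CPM in scrambled-peptide libraries and 20.2 ± 1.40 CPM in wild-type libraries. Neither P301S group overlapped wild type for Ggps1, and its log2 fold changes over wild type were -0.28 for Cdk5i and -0.25 for scrambled peptide, with adjusted p-values of 0.289 and 0.379 (edgeR). The wild-type libraries are the same in both. Of all genes, 8.22% were lower without overlap for Cdk5i and 8.03% for scrambled peptide. Of the other genes of the branch, Coq2 and Dhdds stood at -0.17 and 0.10 for Cdk5i over wild type.

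Uptake, storage and export genes were 20, of which 19 were tested and none passed in any comparison. Between the peptides their median was -0.01, and 0 of 19 had an unadjusted p under 0.05. Soat1, which esterifies cholesterol for storage, had 8.88, 11.4 and 18.6 CPM in Cdk5i libraries, 19.6, 17.4 and 17.4 CPM in scrambled-peptide libraries and 19.1, 8.85 and 15.0 CPM in wild-type libraries, with a log2 fold change between the peptides of -0.48 and an adjusted p of 0.958. Its lowest libraries were again the first of Cdk5i and the second of wild type. Stard4, a carrier of cholesterol between membranes and a known target of SREBP2, averaged 3.71 ± 0.526 CPM in Cdk5i, 4.60 ± 0.422 CPM in scrambled-peptide and 4.84 ± 0.309 CPM in wild-type libraries. The Cdk5i libraries of Stard4 lay below all others, with log2 fold changes of -0.31 over scrambled peptide (adjusted p = 0.923) and -0.38 over wild type (adjusted p = 0.387, edgeR).

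The lipoprotein receptors Lrp8 and Scarb1 had their highest averages in Cdk5i libraries. Lrp8, the receptor for reelin and lipoproteins, averaged 144 ± 5.71 CPM in Cdk5i libraries, 134 ± 10.3 CPM in scrambled-peptide libraries and 120 ± 5.54 CPM in wild-type libraries. Its log2 fold change of Cdk5i over wild type was 0.27 with an unadjusted p of 0.00184 and an adjusted p of 0.216 (edgeR), the lowest adjusted p of any gene in these lists. Scarb1, a receptor for high-density lipoprotein, averaged 23.3 ± 1.12 CPM in Cdk5i, 21.2 ± 0.304 CPM in scrambled-peptide and 19.1 ± 1.54 CPM in wild-type libraries, without overlap between any 2 groups. The log2 fold change of Scarb1 for Cdk5i over wild type was 0.28, and its adjusted p was 0.246 (edgeR). In that comparison 4 of 19 transport genes had an unadjusted p under 0.05, where 11% of all genes did.

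Fatty acid synthesis, which is under the related SREBP1, was set beside the sterol genes. Fasn, fatty acid synthase, averaged 32.5 ± 3.99 CPM in Cdk5i libraries, 39.2 ± 1.86 CPM in scrambled-peptide libraries and 32.3 ± 3.21 CPM in wild-type libraries. The scrambled-peptide libraries of Fasn lay above all 6 others, with log2 fold changes of -0.27 for Cdk5i over scrambled peptide (adjusted p = 0.841) and 0.28 for scrambled peptide over wild type (adjusted p = 0.360, edgeR). These comparisons share the scrambled-peptide libraries. Elovl6, an elongase of saturated fatty acids, averaged 99.8 ± 8.20 CPM in Cdk5i, 104 ± 5.68 CPM in scrambled-peptide and 85.3 ± 5.56 CPM in wild-type libraries, and its log2 fold changes over wild type were 0.23 for Cdk5i and 0.28 for scrambled peptide, with adjusted p-values of 0.314 and 0.281. Of the 13 genes of this list, 11 were lower with Cdk5i than with scrambled peptide, with a median of -0.06, and 9 were higher with scrambled peptide than in wild type, with a median of 0.11 and 4 at an unadjusted p under 0.05. Over all genes, 52.8% were lower in the first of these comparisons, and in the second 51.7% were higher and 10.1% had an unadjusted p under 0.05. Of the 12 oligodendrocyte markers tested, 10 were also higher with scrambled peptide than in wild type, 4 of them at an unadjusted p under 0.05, and the sums of all 14 markers, 197 to 225 CPM in scrambled-peptide and 168 to 176 CPM in wild-type libraries, did not overlap. Their part in the values of this comparison, the sterol genes included, was not tested. None passed in any comparison.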

How the data were processed

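Each library has 1 deposited table of raw counts, whole numbers of read pairs for every gene without normalisation. The authors made them with featureCounts 2.0.0 on whole genes of Ensembl release 102, paired and reverse-stranded, per the file headers. RNA came from sorted nuclei and went through a stranded total RNA kit, per the labels' protocols. The submitters' processing notes name the tools DESeq2 1.36.0, STAR 2.7.9a and Subread 2.0.0 and the build GRCm38. Pairs that overlap several genes of a strand are left out by default, and introns count with exons.

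Counts were analysed in R 4.3.3 with edgeR 4.0.16. The 16046 genes kept by filterByExpr were fitted with TMM factors in 1 robust quasi-likelihood model of 3 group means over the 9 libraries, with 6 residual degrees of freedom. P-values were adjusted by Benjamini-Hochberg over all 16046 genes at a threshold of 0.05. CPM use TMM-scaled library sizes, and standard errors come from the fold change and F. Counting errors cover counting only, since copies made by PCR are not separate molecules.

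The 7 genes, the pathway lists and the markers were chosen with earlier results of these data known, and some genes of the pathway are not reported here. In every comparison all 7 genes were described, with up to 3 genes a list that had the largest log2 fold change and at least 50 counts on average. The other genes of the lists that are named, such as Dhcr7, Mbtps1, Mbtps2 and Insig2, were named for their roles. Of 126 listed symbols 114 were tested. Libraries of a group differed beyond counting noise (chi-square per degree of freedom 8.96 to 27.0), so none was counted as a copy. Alternatives were DESeq2 1.42.0, limma-voom (limma 3.58.1), other scalings, filters, dispersions and sample sets, the replicate number as a block, and each library left out. Same-numbered libraries deviated together only for scrambled peptide and wild type (r = 0.263, 0.152 and 0.138). For Cdk5i r ran from -0.447 to 0.0415, and no label ties the numbers to an animal or day.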

Additional observations from a re-analysis of the deposited data

How the results depend on the processing

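None of the 7 genes passed in any of the 20 alternatives of each comparison, and the lowest adjusted p was 0.0608, for Fdft1 between the peptides. Of 420 fold changes 405 kept their sign and their side of the threshold, and 15 reversed. The median of the 7 ran from -0.363 to -0.192 for Cdk5i over scrambled peptide, from -0.312 to -0.0559 for Cdk5i over wild type and from -0.0146 to 0.143 for scrambled peptide over wild type. The cause of each reversal was not tested. With library sizes free of ribosomal and mitochondrial RNA, Scap became -0.0187 for Cdk5i over scrambled peptide and Insig1 0.0401 for scrambled peptide over wild type. With the mitochondrial share as a covariate, Hmgcs1 became -0.0094 and Sqle -0.0632 for scrambled peptide over wild type, and with the length offset Sqle became -0.0091. Leaving out single libraries moved that comparison from -0.0593 to 0.135 for Hmgcs1, from -0.137 to 0.0617 for Insig1, from -0.0146 to 0.0660 for Scap and from -0.102 to 0.143 for Sqle, and Srebf2 from -0.113 to 0.0459 for Cdk5i over wild type.

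Between the peptides, the members with an unadjusted p under 0.05 were 5, 3 with DESeq2, 3 with the replicate block and 1 with the mitochondrial share, and 1 to 5 with a library left out. For Cdk5i over wild type they were 1, 2 with DESeq2, limma-voom, the block or no filter, and 0 to 3 with a library left out. For scrambled peptide over wild type they were 0, 1 without the filter or with the other library sizes, and 0 to 2 with a library left out. In that last comparison 1 gene was negative, 0 with the other library sizes, 3 with the mitochondrial share, 2 with the length offset and 0 to 4 with a library left out.

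Of all genes, 2 were called for Cdk5i over scrambled peptide, 159 without a filter, 27 with DESeq2 and 2 to 18 with a library left out. For Cdk5i over wild type 12 were called, 408 without a filter, 1 with at least 50 counts, 2 with the replicate block, 3 with non-robust dispersion, 2 with only the groups compared, 111 with DESeq2 and 2 to 14 with a library left out. For scrambled peptide over wild type 13 were called, 318 without a filter, 5 with at least 50 counts, 2 with the replicate block, 6 with non-robust dispersion, 75 with DESeq2 and 2 to 17 with a library left out. Among the 3 groups 12 were called, 602 without a filter, 3 with at least 50 counts, 3 with the replicate block, 5 with non-robust dispersion, 148 with DESeq2 and 3 to 22 with a library left out. The replicate block changed no call of the 7 genes. The share of windows with the motif was 1.24%, 0.551% for TCACCCCAC and 4.36% for TCACNCCA, a form added after the sequences were seen. A median standard error of 0.14 limits what 3 libraries a group can show.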
